A study of Mus musculus with 8 samples.

Results

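The genes of arginine and polyamine metabolism were measured by bulk RNA sequencing in macrophages of mouse skin wounds, 3 days and 1 day after injury. The set holds 10 of the 55414 genes counted: the transporter gene Slc7a2, the arginase genes Arg1 and Arg2, the recycling enzyme gene Ass1, the nitric oxide synthase gene Nos2, and the polyamine genes Odc1, Amd1, Srm, Sat1 and Oaz1. They were chosen for their known functions, with earlier results of these data known, and each symbol matched a single gene identifier. The day 3 group had 5 libraries (a to e) and the day 1 group had 3 (a to c). In both groups, skin of the wound bed was digested and macrophages were pulled out with magnetic beads against F4/80, a macrophage surface protein encoded by Adgre1. Every sample was a pool of 6 wounds from 3 mice, and the protocol states 6 samples per time point; 8 libraries in all were analysed here. The labels give no strain, genotype or age, and no unwounded skin was part of the comparison. They do not say whether pools shared mice, so p-values measure the spread between these pools. Since each library was a bulk sample, fewer cells of a type and less RNA per cell cannot be told apart.

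Arginine enters macrophages through cationic amino acid transporters, and the cell then spends it in competing ways. Arginase splits it into urea and ornithine, from which polyamines and proline are made, whereas inducible nitric oxide synthase oxidises it to nitric oxide and citrulline. The polyamines putrescine, spermidine and spermine are needed for growth and translation and are held in balance by synthesis, acetylation and the antizyme protein. In wounds, macrophages are known for nitric oxide in the early inflammatory phase and for arginase during repair.

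Total counts were between 50515389 and 56661695 in the day 3 libraries, against 41566151 to 60289310 in the day 1 libraries. Adgre1 had 993 to 1180.0 normalised CPM (counts scaled to a common library total) at day 3 and 686 to 938.5 at day 1, so the gene of the bead target was abundant in every library. The macrophage markers summed to 29183 to 36213 CPM at day 3 and 17591 to 20324 CPM at day 1, and the inflammatory monocyte markers to 4594 to 5727 CPM at day 3 and 7664 to 10047.8 CPM at day 1 (two-sided exact permutation p = 0.0357 for each, the smallest that 5 against 3 libraries can give, and adjusted p = 0.107 over 12 marker lists). Within the macrophage list, Lyz2 carried most of the gap, with 15641 to 23420 CPM at day 3 and 6687 to 9864 CPM at day 1. Fcgr1 went the other way, with 343 to 487 CPM at day 3 and 715 to 975 CPM at day 1, and Cd68, Mrc1, Csf1r, Mertk and C1qa overlapped between the days. The fibroblast markers, at 56 to 119 CPM on day 3 and 9.45 to 37.5 CPM on day 1, and the B or plasma cell markers, at 17.6 to 36.1 CPM on day 3 and 0.251 to 13.3 CPM on day 1, had the same p and adjusted p. Their part in the levels of the members was not tested. Some libraries stood apart. Day 3 b had 3773 CPM of the summed neutrophil markers, against 451 to 681 CPM in the other day 3 libraries, and the day 1 libraries a to c had 846, 2252 and 3918 CPM. Day 1 c had 102 of 8210 well-expressed genes at over 4 times their level in every other library, where other libraries had 0 to 3, and its genes of high GC content were shifted upwards (a median log2 difference of 0.89 in the top 10% by GC and -0.48 in the bottom 10%). Day 1 a had 578 of these genes over 4 times lower than in every other library. A count was found for 14952 to 20557 genes in the day 3 libraries, against 23928 to 27315 in the day 1 libraries.

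No gene of the set passed the test between the days, although the arginase gene Arg1, the recycling gene Ass1 and the transporter gene Slc7a2 were each lower at day 3 by about 1 log2 unit or more. With the edgeR quasi-likelihood test and Benjamini-Hochberg adjustment at a threshold of 0.05, 0 of the 10 members were called, against 0.013% of the 15371 genes tested (2 genes). All 10 members passed the filter on low counts. At an unadjusted p under 0.05, 3 of 10 members (Arg1, Ass1 and Slc7a2) were lower and 0 were higher, against 10.5% lower and 5.16% higher among all genes tested. DESeq2 called 1 member, Arg1 (lower, adjusted p = 0.0362), against 6.77% of all genes (4.29% lower and 2.48% higher). By limma voom 0 members were called, against 5.37% of all genes (4.4% lower and 0.963% higher). A stricter filter kept genes with a mean of 5 CPM or more that reached 1 CPM throughout the libraries of either day. There edgeR called 0 of 9 members, against 1.79% of 8142 genes (1.02% lower and 0.774% higher), and Nos2 was not tested. At an unadjusted p under 0.05 the same 3 members were lower there and 0 were higher, against 11.8% and 8.84% of those genes. With no filter on low counts, edgeR called Arg1 and Nos2, both lower, against 3.5% of 38518 genes (2.95% lower and 0.545% higher). Only Slc7a2 had day ranges that did not overlap, against 14.1% of all genes tested (8.73% lower and 5.35% higher). The median log2 fold change, day 3 minus day 1, was -0.22 over the members and -0.17 over all genes tested.

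**Figure D1:**
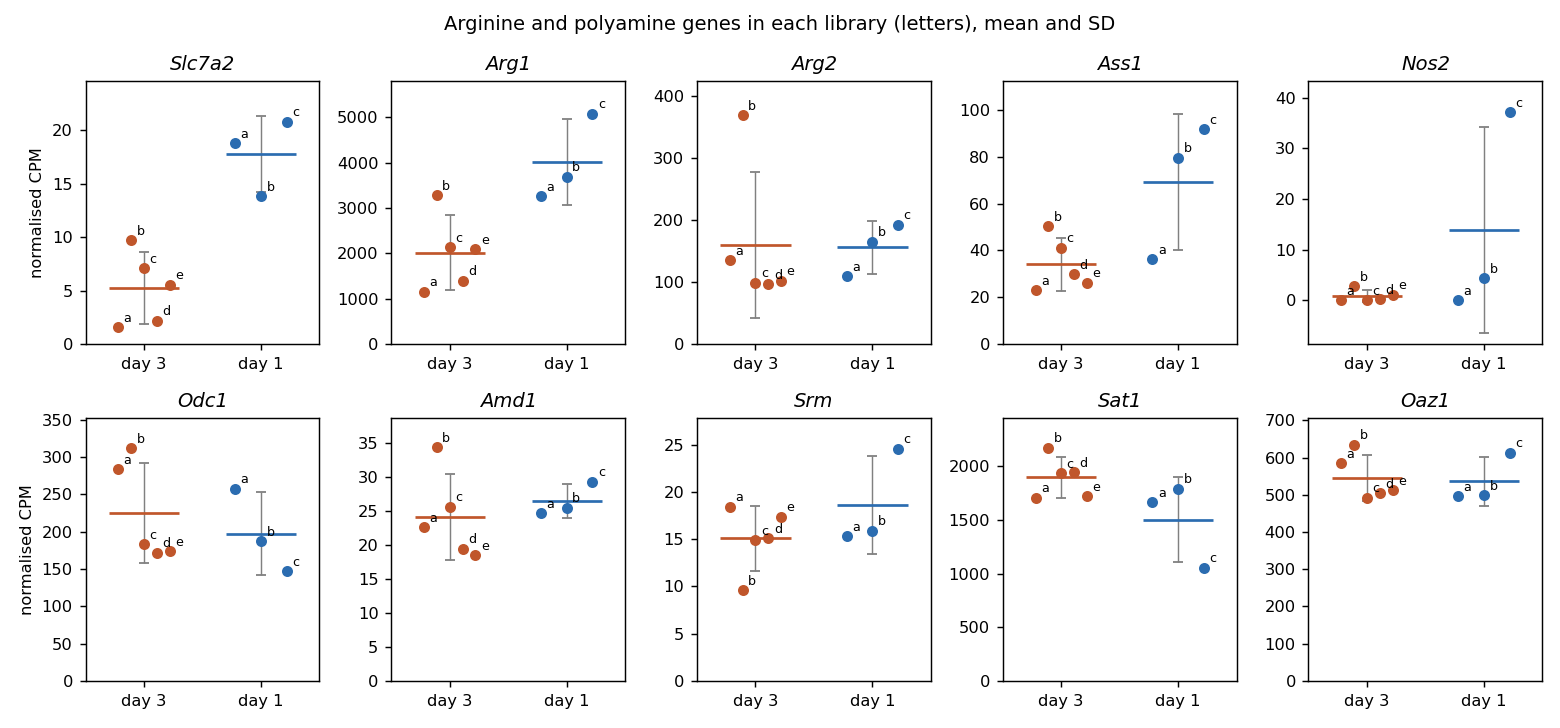
Normalised CPM of the 10 genes in each library, with the day 3 libraries (orange, a to e) left of the day 1 libraries (blue, a to c); lines are group means, grey bars are SD, and each panel has its own axis. The Slc7a2 points at day 3 (1.61 to 9.69 CPM) all lie below those at day 1 (13.8 to 20.8 CPM), and day 3 b is the highest day 3 library in 9 of the 10 panels.

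Slc7a2 (ENSMUSG00000031596, GRCm39 chromosome 8, 41315433 to 41375345, plus strand) encodes an inducible cationic amino acid transporter that brings arginine into macrophages. It had 1.61, 9.69, 7.08, 2.20 and 5.56 CPM in the day 3 libraries a to e, against 18.7, 13.8 and 20.8 CPM in the day 1 libraries a to c. All 5 day 3 libraries were below all 3 day 1 libraries, as were 8.73% of all genes tested. The means were 5.23 ± 3.38 CPM at day 3 and 17.8 ± 3.57 CPM at day 1 (SD, n = 5 and 3), with log2 fold change -1.77 ± 0.61 (SE; edgeR, unadjusted p = 0.0161, adjusted p = 0.181). The gene stayed lower with each library left out in turn, between -2.11 and -1.54, and never passed the threshold.

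Arg1 (ENSMUSG00000019987, GRCm39 chromosome 10, 24791119 to 24803382, minus strand) encodes the cytosolic arginase that marks alternatively activated macrophages in the mouse. It had 1162, 3282, 2141, 1396 and 2095 CPM in the day 3 libraries a to e, against 3267, 3693 and 5077 CPM in the day 1 libraries a to c. Of the day 3 libraries, 4 were below every day 1 library, and day 3 b reached the level of day 1 a. The means were 2015 ± 828 CPM at day 3 and 4012 ± 946 CPM at day 1 (SD, n = 5 and 3). The log2 fold change was -1.0 ± 0.32 (edgeR, unadjusted p = 0.0109, adjusted p = 0.153), or -1.24 (adjusted p = 0.0995) without day 3 b. It shrank to -0.80 without day 1 c. Under the stricter filter the estimate was -0.97 ± 0.30 (adjusted p = 0.11), and -0.76 without day 1 c. Arg1 passed the threshold there in 1 of 8 fits with 1 library left out. That fit was without day 3 b (-1.21, adjusted p = 0.0454), a setting chosen after the data were seen. The high neutrophil markers of day 3 b were measured beside this value, and their part in it was not tested.

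Arg2 (ENSMUSG00000021125, GRCm39 chromosome 12, 79177551 to 79203075, plus strand) encodes the mitochondrial arginase. It had 136, 370.0, 99.1, 96.8 and 103 CPM in the day 3 libraries a to e, against 110.2, 166 and 193 CPM in the day 1 libraries a to c. Day 3 b stood alone at the top, and the other 4 day 3 libraries lay within or just under the day 1 range. The means were 161 ± 118 CPM at day 3 and 156 ± 42.1 CPM at day 1, with log2 fold change 0.04 ± 0.46 (edgeR, adjusted p = 0.983). Without day 3 b the estimate turned to -0.53 (adjusted p = 0.32). Of the 1428 exon bases of Arg2, 285 are shared with Vti1b on the opposite strand, and reads there could not be assigned without strand.

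Ass1 (ENSMUSG00000076441, GRCm39 chromosome 2, 31360219 to 31410684, plus strand) encodes argininosuccinate synthase, which with Asl rebuilds arginine from the citrulline that nitric oxide synthesis releases. It had 23.0, 50.4, 41.1, 29.8 and 26.3 CPM in the day 3 libraries a to e, against 36.4, 79.6 and 91.7 CPM in the day 1 libraries a to c. Day 1 a lay inside the day 3 range, and day 1 b and day 1 c were above it. The means were 34.1 ± 11.4 CPM at day 3 and 69.2 ± 29.1 CPM at day 1, with log2 fold change -1.02 ± 0.35 (edgeR, unadjusted p = 0.0155, adjusted p = 0.179). With 1 library left out in turn, Ass1 ran from -1.36 (without day 1 a) to -0.78 (without day 1 c) and never passed the threshold. Its partner Asl had 68.9, 56.2, 57.9, 76.5 and 62.2 CPM at day 3 and 99.4, 76.0 and 80.3 CPM at day 1, and its log2 fold change was -0.41 ± 0.18 (adjusted p = 0.312). The promoter of Ass1 (RefSeq, GRCm38.p6, chr2:31470020-31470319, plus strand) is shown because it is the only promoter in the reference table among the 3 members with an unadjusted p under 0.05. Capitals mark matches of the motifs named after it.
Ass1 promoter: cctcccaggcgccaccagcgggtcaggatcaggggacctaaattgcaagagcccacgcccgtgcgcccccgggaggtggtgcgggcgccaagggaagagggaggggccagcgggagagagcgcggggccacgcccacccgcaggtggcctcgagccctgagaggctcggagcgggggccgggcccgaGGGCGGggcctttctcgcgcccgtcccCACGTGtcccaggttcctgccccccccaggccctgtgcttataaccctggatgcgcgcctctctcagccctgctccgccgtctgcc

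The 300 bases, 250 before and 50 after the start, were searched on both strands. The motifs were ACGTG, the core of the hypoxia response element, and the E-box CACGTG, which always holds that core as well. TGANTCA was searched as the AP-1 motif and TTCNNNGAA as the STAT motif, besides the wider STAT6 spacing and an NF-kB site. TGACGTCA was searched as the cyclic AMP response element, GGGCGG as the GC box and TATAAA as the box that positions the polymerase. The Ass1 window held a CACGTG at -36 and a GGGCGG at -63. Of 32851 mouse promoters in the table, 7.15% held CACGTG, 19.6% ACGTG and 35.7% GGGCGG. These matches are descriptions of the letters and not of bound factors.

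Nos2 (ENSMUSG00000020826, GRCm39 chromosome 11, 78811613 to 78851080, plus strand) encodes the inducible nitric oxide synthase. It was close to absent from most libraries, with 0.0948, 2.82, 0, 0.275 and 1.14 CPM in the day 3 libraries a to e, against 0.0501, 4.34 and 37.2 CPM in the day 1 libraries a to c. These correspond to 5, 139, 0, 16 and 60 counts at day 3 and 2, 261 and 2047 counts at day 1. A floor of 3 counts, which covers counting error only, equals 0.0590 CPM in day 3 c and 0.0752 CPM in day 1 a, so Nos2 was not detectable above it in those libraries. Its day 1 level rested on 1 library, day 1 c. The means were 0.867 ± 1.18 CPM at day 3 and 13.9 ± 20.3 CPM at day 1, with log2 fold change -4.00 ± 1.79 (edgeR, unadjusted p = 0.0509, adjusted p = 0.320), and without day 1 c the estimate was -1.38 (adjusted p = 0.801). With no filter on low counts edgeR gave an adjusted p of 0.00134.

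**Figure D2:**
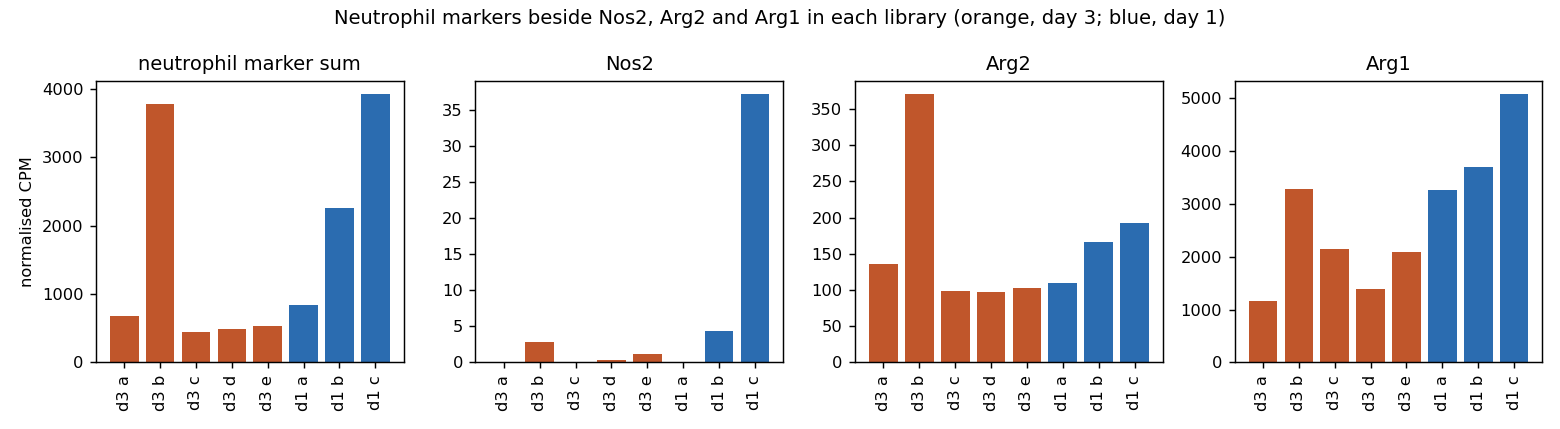
Normalised CPM of the 12 summed neutrophil markers and of Nos2, Arg2 and Arg1 in each library; bars run from day 3 a to e (orange, d3) and then day 1 a to c (blue, d1). The libraries with the highest marker sums, day 1 c (3918 CPM), day 3 b (3773 CPM) and day 1 b (2252 CPM), are also the 3 highest in Nos2, Arg2 and Arg1. In Arg1, day 1 a (3267 CPM) is nearly level with day 3 b (3282 CPM). Of the members not plotted, only Ass1 has the same 3 highest libraries.

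Day 1 c, day 3 b and day 1 b had the highest summed neutrophil markers. The same 3 libraries had the highest levels of Nos2, Arg2 and Arg1, and also of Ass1. Slc7a2, Odc1, Amd1, Srm, Sat1 and Oaz1 each had another library among their 3 highest. The share of all genes with these 3 libraries highest was not counted. For Arg1, day 1 a (3267 CPM) was nearly level with day 3 b (3282 CPM), while their marker sums were 846 and 3773 CPM. None of the 12 neutrophil markers was at 0 in every library. S100a8 and S100a9, calcium-binding proteins abundant in neutrophils, had 1771 and 1061 CPM in day 3 b, against 115 to 253 and 68.4 to 137 CPM in the other day 3 libraries. The granule gene Camp was at 0.935 CPM in day 3 b, at 0 in the other day 3 libraries, and at 0, 0.333 and 0.182 CPM at day 1. Not every marker followed the order of the sum. Ltf had 17.0 and 16.0 CPM in day 1 a and b, against 7.11 CPM in day 3 b and 2.83 CPM in day 1 c. Mmp8 had 177 CPM in both day 1 c and day 3 c. Whether neutrophil RNA took part in the levels of the members was not tested. Day 3 b was the highest day 3 library in 9 of 10 members (all but Srm), and in 22.1% of all genes tested. Day 1 c was the highest day 1 library in 8 of 10 members (all but Odc1 and Sat1), and in 35.1% of all genes tested. The GC content of the longest reference transcript ran from 41.4% (Amd1) to 59.8% (Srm) over the members, and of them only Srm was in the top 10% of genes, which begins at 56.5%. The part of GC in the levels of day 1 c was not tested.

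Odc1 (ENSMUSG00000011179, GRCm39 chromosome 12, 17594795 to 17601506, plus strand) encodes ornithine decarboxylase, the enzyme that commits ornithine to polyamines. It had 284, 312, 183, 172 and 174 CPM in the day 3 libraries a to e, against 258, 187 and 147 CPM in the day 1 libraries a to c. Day 3 a and day 3 b were above every day 1 library, and the other 3 day 3 libraries lay inside the day 1 range. The means were 225 ± 67.5 CPM at day 3 and 197 ± 56 CPM at day 1, with log2 fold change 0.18 ± 0.27 (edgeR, adjusted p = 0.817). Its promoter (RefSeq, GRCm38.p6, chr12:17544623-17544922, plus strand) is shown beside that of Ass1 as one from a gene of the other branch; it held 4 GC boxes (capitals) and none of the other motifs.
Odc1 promoter: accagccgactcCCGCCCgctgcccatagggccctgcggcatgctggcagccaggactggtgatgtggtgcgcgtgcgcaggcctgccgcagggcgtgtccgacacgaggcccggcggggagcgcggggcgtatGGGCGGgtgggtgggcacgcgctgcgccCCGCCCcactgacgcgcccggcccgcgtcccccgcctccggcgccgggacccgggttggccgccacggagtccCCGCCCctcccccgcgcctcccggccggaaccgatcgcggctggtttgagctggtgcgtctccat

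Amd1 (ENSMUSG00000075232, GRCm39 chromosome 10, 40163454 to 40178184, minus strand) encodes S-adenosylmethionine decarboxylase, which supplies the aminopropyl groups for spermidine and spermine. It had 22.6, 34.4, 25.6, 19.5 and 18.5 CPM at day 3 and 24.7, 25.5 and 29.4 CPM at day 1. The day 1 libraries all lay inside the day 3 range, and the log2 fold change was -0.14 ± 0.27 (edgeR, adjusted p = 0.872). Reads that fit both Amd1 and its near-identical copy Amd2 were counted with no option for multiple positions. Such reads may be missing from both genes or placed in either, so Amd1 may be undercounted. Amd2 had 0.0571 to 0.664 CPM at day 3 and 0.509 to 1.96 CPM at day 1, values that do not bound such a loss. Translation of Amd1 is held back by polyamines through a short upstream reading frame, so the RNA level of Amd1 alone does not give the enzyme's level. That frame, of 21 bases and 6 codons before the stop, is shown in capitals as read from the RefSeq sequence just after the start (GRCm38.p6, chr10:40302151-40302179, minus strand).
Amd1 upstream frame: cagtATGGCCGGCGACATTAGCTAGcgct

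Srm (ENSMUSG00000006442, GRCm39 chromosome 4, 148675960 to 148679450, plus strand) encodes spermidine synthase. It had 18.4, 9.59, 14.9, 15.1 and 17.4 CPM at day 3 and 15.3, 15.9 and 24.6 CPM at day 1. Day 3 b was the lowest library and day 1 c the highest. The log2 fold change was -0.31 ± 0.34 (edgeR, adjusted p = 0.740), and it was -0.05 without day 1 c.

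Sat1 (ENSMUSG00000025283, GRCm39 chromosome X, 153996128 to 153999445, minus strand) encodes the acetyltransferase that marks spermidine and spermine for export or breakdown. It had 1706, 2174, 1937, 1944 and 1722 CPM at day 3 and 1663, 1791 and 1056 CPM at day 1. Of the day 3 libraries, 3 were above every day 1 library, and day 1 c was the lowest of all 8. The means were 1897 ± 192 CPM at day 3 and 1503 ± 393 CPM at day 1, with log2 fold change 0.33 ± 0.20 (edgeR, adjusted p = 0.477).

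Oaz1 (ENSMUSG00000035242, GRCm39 chromosome 10, 80662490 to 80665124, plus strand) encodes antizyme, which binds ornithine decarboxylase and sends it for degradation. It had 584, 635, 492, 505 and 513 CPM at day 3 and 497, 499 and 613 CPM at day 1, so the groups covered nearly the same range. The log2 fold change was 0.02 ± 0.16 (edgeR, adjusted p = 0.966), and it ran from -0.055 to 0.13 with 1 library left out in turn. Antizyme is made only when the ribosome shifts frame at a stop codon, a step that polyamines promote and that an RNA count does not record. The site is shown with the last sense codon and the stop of the first frame in capitals, from an Oaz1 transcript on chromosome 10 that GENCODE annotates as retaining an intron.
Oaz1 frameshift site: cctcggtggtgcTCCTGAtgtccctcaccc

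**Figure D3:**
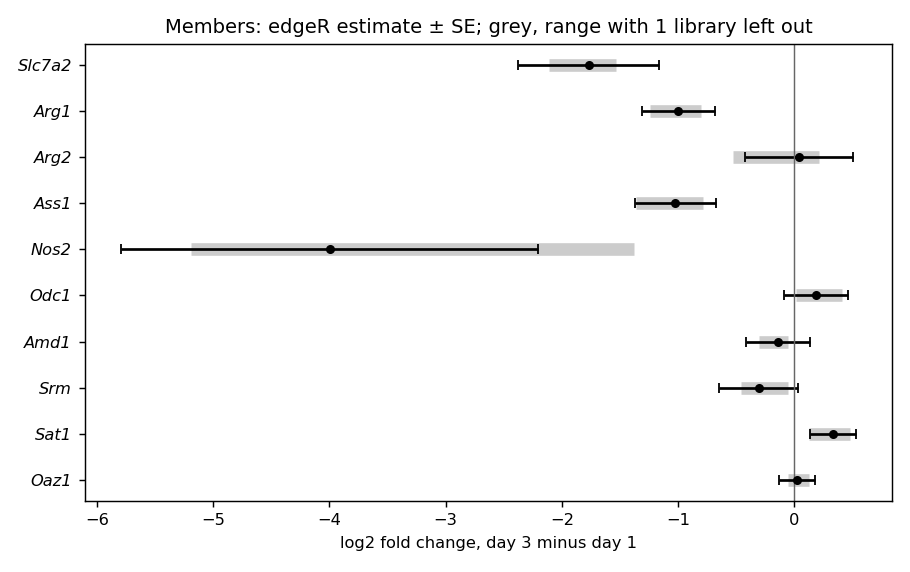
Log2 fold change, day 3 minus day 1, of the 10 genes; points and bars are the edgeR estimate ± SE, and grey bands span the estimates with 1 library left out in turn. The bands of Arg2 and Oaz1 cross 0, those of the other genes do not, and the Nos2 band (-5.19 to -1.38) is the widest.

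Per exon kilobase, Arg1 was the most abundant of the 10 genes on both days, with 905 ± 372 CPM per kilobase at day 3 and 1801 ± 425 at day 1. At day 3 it was followed by Sat1 (684 ± 69.1), Oaz1 (213 ± 24.0), Arg2 (113 ± 82.6), Odc1 (66.0 ± 19.8), Ass1 (14.1 ± 4.71), Srm (9.43 ± 2.14), Amd1 (6.81 ± 1.80), Slc7a2 (0.572 ± 0.370) and Nos2 (0.195 ± 0.267). At day 3 the mean ± SD intervals of Arg1 and Sat1 overlapped, as did those of Oaz1 and Arg2, of Arg2 and Odc1, of Ass1 and Srm, of Srm and Amd1 and of Slc7a2 and Nos2. At day 1 the order was the same down to Amd1 (7.48 ± 0.706), and Nos2 (3.12 ± 4.58) stood above Slc7a2 (1.95 ± 0.390), with an interval that overlapped those of both Slc7a2 and Amd1. On neither day did the level of Nos2 per kilobase reach that of either arginase gene in any library.

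The balance between branches was read from ratios of levels per kilobase within each library, which carry no test because the genes were picked with their values known. The ratio of Arg1 to Arg2 was 5.48, 5.69, 13.8, 9.24 and 13.1 in the day 3 libraries a to e, against 19.0, 14.3 and 16.9 in the day 1 libraries a to c. The ratio of Arg1 to Odc1 was 6.26, 16.1, 17.9, 12.4 and 18.4 at day 3 and 19.4, 30.2 and 52.7 at day 1. In both ratios every day 3 library was below every day 1 library, though Arg1 to Arg2 only narrowly (13.8 in day 3 c, 14.3 in day 1 b). Slc7a2 to Arg1 was also separate, at 0.000338 to 0.000806 on day 3 and 0.000914 to 0.00140 on day 1. How often other gene pairs separate was not counted, and 14.1% of single genes tested did. These separations are therefore descriptions of the libraries only. The ratio of Arg1 to Nos2 was 2316 to 24409 in the 4 day 3 libraries with Nos2 above 3 counts, against 272 and 1695 in the 2 such day 1 libraries, and that ratio follows the sparse Nos2 counts. Arg1 to Ass1, at 50.7 to 86.4 on day 3 and 50.3 to 97.3 on day 1, overlapped between the days. Odc1 to Sat1 overlapped as well, at 0.0719 to 0.135 on day 3 and 0.0850 to 0.126 on day 1.

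**Figure D4:**
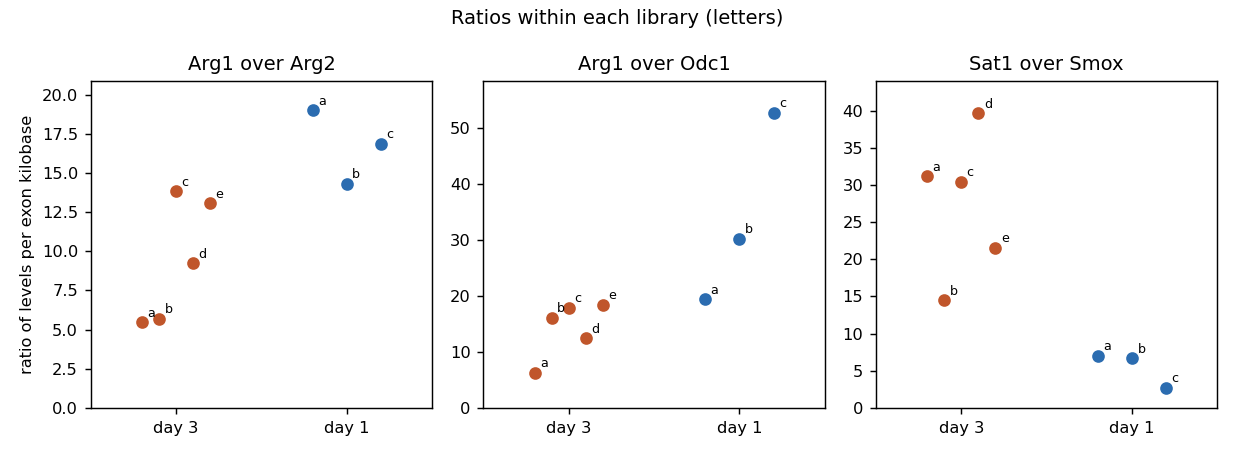
Ratio of levels per exon kilobase within each library for Arg1 over Arg2, Arg1 over Odc1 and Sat1 over Smox, with the day 3 libraries (orange, a to e) left of the day 1 libraries (blue, a to c). Day 3 lies below day 1 in the first and middle panels (5.48 to 13.8 against 14.3 to 19.0, and 6.26 to 18.4 against 19.4 to 52.7), and above it in the last (14.5 to 39.7 against 2.73 to 7.01). Smox alone already had separate ranges. Arg1 over Ass1 and Odc1 over Sat1, which overlapped between the days, are not plotted.

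The wider pathway was followed in 74 further genes that act beside the members, of which 63 were tested. The edgeR test called 0 of the 63, against 0.013% of all genes. At an unadjusted p under 0.05, 5 were higher and 17 lower, against 5.16% and 10.5% of all genes. DESeq2 called 10 (3 higher, 7 lower) and limma voom called 8 (2 higher, 6 lower), against 6.77% and 5.37% of all genes. Under the stricter filter edgeR called 4 of 49, against 1.79% of 8142 genes: Smox and Gch1 were lower, and Nosip and Klf4 higher. With 1 library left out in turn, a setting chosen after the data were seen, the count of calls ran from 0 (without day 3 c, d or e) through 1 (without day 1 c or day 3 a) to 8 (without day 1 b). Day 3 and day 1 ranges were separate in 13 of the 63 genes (6 higher, 7 lower), against 14.1% of all genes. Nos1 and Oaz3, among the 7 lower, passed the filter on low counts only through the day 1 libraries, where they were high. The median log2 fold change was -0.24 over the 63 genes, against -0.17 over all genes tested.

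Smox (ENSMUSG00000027333, GRCm39 chromosome 2, 131333416 to 131367842) fell at day 3 under the stricter filter. It encodes spermine oxidase, which turns spermine back into spermidine and releases hydrogen peroxide. It had 76.8, 210.1, 89.2, 68.8 and 112 CPM in the day 3 libraries a to e, against 333, 375 and 544 CPM in the day 1 libraries a to c. All 5 day 3 libraries were below all 3 day 1 libraries, with day 3 b the nearest. The means were 111 ± 57.5 CPM at day 3 and 417 ± 111 CPM at day 1, with log2 fold change -1.91 ± 0.36 (edgeR, adjusted p = 0.0726), and -1.88 ± 0.34 under the stricter filter (adjusted p = 0.0307). Without day 3 b it passed the threshold with the main filter as well (-2.27, adjusted p = 0.0356). Under the stricter filter it passed in 3 of 8 fits with 1 library left out, and stayed between -2.24 and -1.64. Paox, the peroxisomal oxidase of the acetylated polyamines, is named after its values were seen and had 11.2 to 18.5 CPM at day 3 and 10.7 to 14.4 CPM at day 1 (edgeR, adjusted p = 0.905). Within libraries, the ratio of Sat1 to Smox per kilobase was 31.2, 14.5, 30.5, 39.7 and 21.6 at day 3 and 7.01, 6.71 and 2.73 at day 1, with no overlap. Smox alone already had separate ranges, so this ratio is no further evidence. Of the catabolism and export genes, 1 of 7 tested (Smox) had ranges that did not overlap, a share near the 14.1% of all genes tested. The putative polyamine transporter gene Atp13a3 had a log2 fold change of 0.23 ± 0.45 (adjusted p = 0.874).

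Gch1 (ENSMUSG00000037580, GRCm39 chromosome 14, 47391352 to 47426870) fell under that filter as well. It encodes GTP cyclohydrolase, the first enzyme of the synthesis of tetrahydrobiopterin, the cofactor that nitric oxide synthases need. It had 43.3, 75.7, 36.1, 38.9 and 68.2 CPM in the day 3 libraries a to e, against 129.6, 135 and 204 CPM in the day 1 libraries a to c. The groups did not overlap. The means were 52.4 ± 18.2 CPM at day 3 and 156 ± 41.2 CPM at day 1, with log2 fold change -1.58 ± 0.29 (edgeR, adjusted p = 0.0690), and -1.55 ± 0.28 under the stricter filter (adjusted p = 0.0307), where it passed in 3 of 8 fits with 1 library left out. Unlike Nos2, Gch1 was well above the count floor in every library, and it was lower without day 1 c too (-1.35, adjusted p = 0.125).

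The promoters of Smox (RefSeq, GRCm38.p6, chr2:131491612-131491911, plus strand) and Gch1 (chr14:47189364-47189663, minus strand) are shown as those of the genes called lower under the stricter filter. The same motifs were searched. Smox held 6 GC boxes and Gch1 held 2, besides a TATAAA on the opposite strand at -188, and 13.6% of all promoters held TATAAA.
Smox promoter: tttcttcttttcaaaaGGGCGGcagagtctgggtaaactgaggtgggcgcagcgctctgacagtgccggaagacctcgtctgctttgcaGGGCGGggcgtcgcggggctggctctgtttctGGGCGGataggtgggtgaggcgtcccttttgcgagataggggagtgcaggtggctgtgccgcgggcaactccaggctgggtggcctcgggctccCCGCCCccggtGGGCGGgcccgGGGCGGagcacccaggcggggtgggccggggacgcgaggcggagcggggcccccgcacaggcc
Gch1 promoter: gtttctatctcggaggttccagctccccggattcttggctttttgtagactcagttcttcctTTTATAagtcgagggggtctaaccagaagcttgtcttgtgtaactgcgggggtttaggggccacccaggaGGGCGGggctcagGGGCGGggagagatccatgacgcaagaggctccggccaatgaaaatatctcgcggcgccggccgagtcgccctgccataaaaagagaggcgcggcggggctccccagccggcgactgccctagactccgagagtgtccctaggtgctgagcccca

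Nosip (ENSMUSG00000003421, GRCm39 chromosome 7, 44711853 to 44727634), whose protein binds endothelial nitric oxide synthase, rose under the stricter filter. It had 124, 106, 109, 142 and 115 CPM at day 3 and 47.0, 77.0 and 48.1 CPM at day 1, with no overlap. The log2 fold change was 1.05 ± 0.22 (edgeR, adjusted p = 0.0829) and 1.08 ± 0.23 under the stricter filter (adjusted p = 0.0434), where it passed in 1 of 8 fits with 1 library left out. Of the 2800 exon bases of Nosip, 103 are shared with Prrg2 on the opposite strand. Nostrin and Nos1 also had separate ranges and are named after their values were seen. Nostrin, which encodes a trafficking partner of endothelial nitric oxide synthase, had 28.9 to 49.0 CPM at day 3 and 11.8 to 20.9 CPM at day 1 (edgeR, adjusted p = 0.0854). The endothelial synthase gene itself, Nos3, had 0 to 1.22 CPM at day 3 and 0.0251 to 0.898 CPM at day 1 (edgeR, adjusted p = 0.965). It too is named after its values were seen. The neuronal synthase gene Nos1 was at 0 in 4 day 3 libraries and at 0.0569 CPM in day 3 a, against 0.576, 6.22 and 0.309 CPM at day 1 (edgeR, adjusted p = 0.0940). Nos1 passed the filter on low counts only through day 1, where it was high, so its p-value and separate ranges are no support for a change. More genes had a count in the day 1 libraries, and the part of that in Nos1 was not tested. Of the 9 genes of this role that were tested, 2 had higher and 2 lower ranges at day 3, against 5.35% and 8.73% of all genes tested. Nos1 was 1 of the 2 lower.

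**Figure D5:**
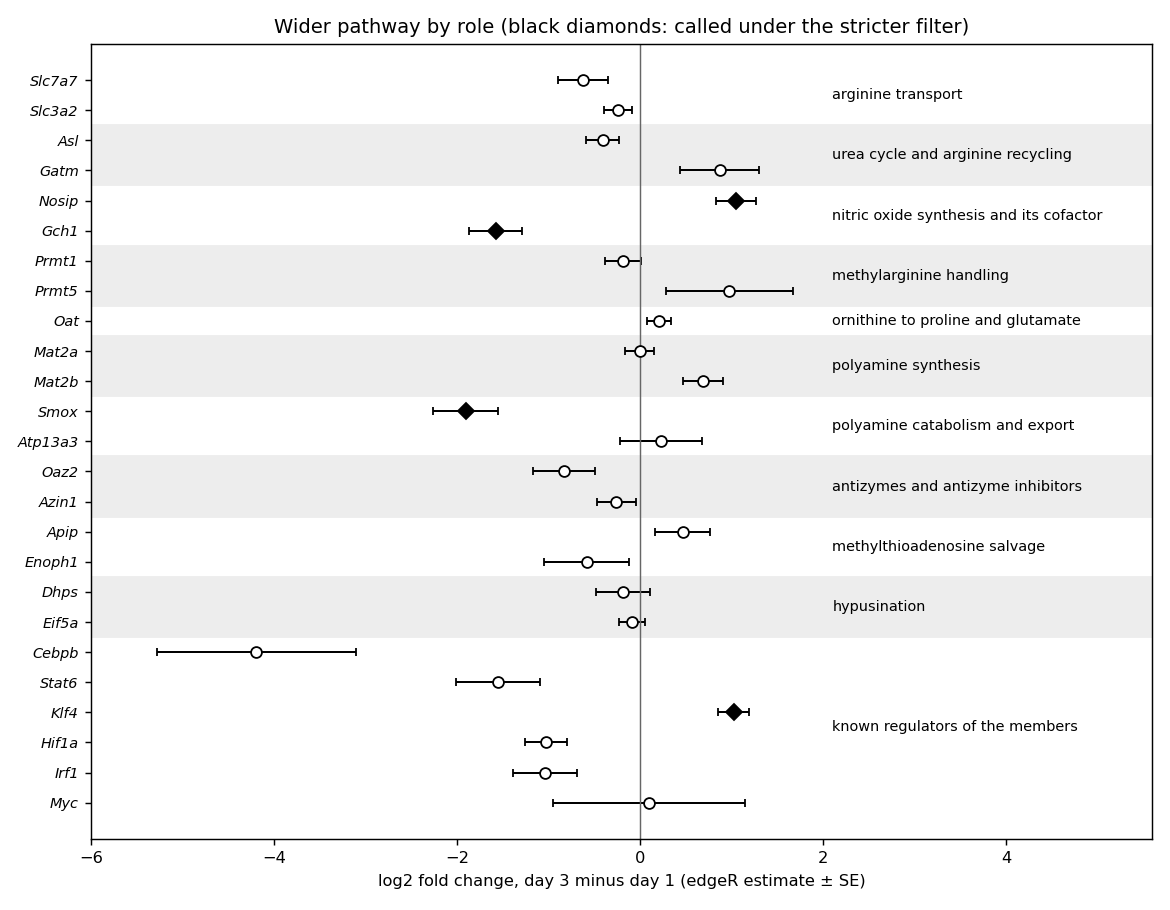
Log2 fold change, day 3 minus day 1, of 25 genes of the wider pathway, by role; points and bars are the edgeR estimate ± SE, and black diamonds mark the genes that passed the stricter filter's test. Smox (-1.91) and Gch1 (-1.58) lie left of 0, and Nosip (1.05) and Klf4 (1.02) right of it.

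Around ornithine and transport, edgeR called no gene under either the main or the stricter filter. Oat, which turns ornithine toward proline and glutamate, had 183, 159, 173, 157 and 173 CPM at day 3 and 147, 145 and 148 CPM at day 1. The groups did not overlap, yet the log2 fold change was small, 0.20 ± 0.14 (edgeR, adjusted p = 0.536). The arginine exporter gene Slc7a7 had 38.2 to 84.6 CPM at day 3 and 83.9 to 131 CPM at day 1 (log2 fold change -0.62 ± 0.27, adjusted p = 0.307). Its partner Slc3a2, the heavy chain of several amino acid transporters, had 823 to 1028 CPM at day 3 and 890.0 to 1229.5 CPM at day 1 (-0.24 ± 0.16, adjusted p = 0.518). Gatm, which uses arginine to make the precursor of creatine, had 54.4 to 129.9 CPM at day 3 and 27.8 to 85.2 CPM at day 1 (0.87 ± 0.43, adjusted p = 0.376). The arginine methyltransferase genes Prmt1 and Prmt5 had log2 fold changes of -0.19 ± 0.20 and 0.98 ± 0.69 (adjusted p = 0.727 and 0.565).

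In polyamine synthesis and its control, edgeR called 0 genes under either the main or the stricter filter, and limma voom called 1, Oaz3. Mat2a, which makes the S-adenosylmethionine that Amd1 uses, had 99.5 to 136 CPM at day 3 and 100.2 to 122 CPM at day 1. Mat2b, its regulatory subunit, had 149.7, 104, 130.1, 125 and 110.3 CPM at day 3 and 54.8, 98.4 and 77.8 CPM at day 1, which did not overlap (0.68 ± 0.22, edgeR adjusted p = 0.157). Oaz2, another antizyme gene, had 13.9 to 29.0 CPM at day 3 and 28.0 to 58.1 CPM at day 1 (-0.83 ± 0.34, adjusted p = 0.271). The antizyme inhibitor gene Azin1, which frees ornithine decarboxylase, had 150.2 to 266 CPM at day 3 and 198 to 255 CPM at day 1 (-0.26 ± 0.21, adjusted p = 0.631). Oaz3, an antizyme of the testis named here after its values were seen, had 2.71 CPM or less at day 3 and 2.91 to 21.4 CPM at day 1. Its counts were 143, 0, 0, 0 and 1 in the day 3 libraries a to e, against 854, 1016 and 160 at day 1. Oaz3 thus passed the filters on low counts only through day 1, where it was high, so its p-values are no support for a change. More genes had a count in the day 1 libraries, and the part of that in Oaz3 was not tested. Its adjusted p was 0.312 by edgeR, 0.363 by DESeq2, 0.0287 by limma voom and 0.000361 by edgeR with no filter on low counts.

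Of 13 known regulators of the members, edgeR called 1 under the stricter filter, Klf4, which was higher at day 3, against 1.79% of the 8142 genes tested there (0.774% higher). Klf4 (ENSMUSG00000003032, GRCm39 chromosome 4, 55527143 to 55532466), a transcription factor that promotes alternative activation in mouse macrophages, had 505, 577, 753, 661 and 593 CPM in the day 3 libraries a to e, against 308, 324 and 278 CPM in the day 1 libraries a to c. Every day 3 library was above every day 1 library. The log2 fold change was 1.02 ± 0.17 (edgeR, adjusted p = 0.0603), and 1.05 ± 0.18 under the stricter filter (adjusted p = 0.0263), where it passed in 4 of 8 fits with 1 library left out. Hif1a, the hypoxia factor that promotes Nos2 and Arg1, had 203, 351, 292, 285 and 306 CPM at day 3 and 547, 431 and 779.6 CPM at day 1, which did not overlap (-1.03 ± 0.23, adjusted p = 0.0829). Stat3, named here after its values were seen, had 163 to 216 CPM at day 3 and 285 to 367 CPM at day 1 (-0.75 ± 0.15, adjusted p = 0.0829). Stat6, which carries the signal of interleukin-4 to Arg1, had 19.0 to 45.0 CPM at day 3 and 45.8 to 174 CPM at day 1 (-1.56 ± 0.46, adjusted p = 0.122), and the estimate was -0.70 without day 1 c. Irf1, an interferon-induced factor that promotes Nos2, had 25.4 to 45.6 CPM at day 3 and 43.7 to 127 CPM at day 1 (-1.04 ± 0.35, adjusted p = 0.176), and the estimate was -0.40 without day 1 c. Cebpb, a factor that acts on Arg1, had 27.3 to 35.7 CPM at day 3 and 35.5, 32.8 and 1736 CPM at day 1, so that its estimate of -4.20 ± 1.09 became -0.06 without day 1 c. Of its 1504 exon bases, 312 are shared with Tmem189 on the opposite strand. Myc, which promotes Odc1, had 5.04 to 19.1 CPM at day 3 and 0.100 to 18.5 CPM at day 1.

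Likeness to Arg1, Nos2 and Odc1 was described by Pearson's r of log2(CPM + 0.5) over the 8 libraries, among 7881 genes with a mean of 5 CPM or more; the libraries share their day and their standing apart, and no p is given. The genes most like Arg1 were Rab5a (r = 0.970), Eno1 (0.968), Slc7a2 (0.967), Entpd1 (0.959) and Antxr2 (0.955). Slc7a2 was thus the third of 7881, Smox ranked 8 (0.945), Gch1 59 (0.886) and Ass1 73 (0.878). Arg2 (0.517), Oaz1 (0.221), Srm (0.081), Odc1 (-0.20) and Sat1 (-0.47) had lower values. The genes most like Nos2 were P4hb (0.975), Nlrp3 (0.973), Brd2 (0.970), Tmf1 (0.968) and Med15 (0.951), with Ass1 at 0.822 and Arg1 at 0.749. Those most like Odc1 were Atp6ap2 (0.932), Mt1 (0.920), Fam104a (0.919), Psma2 (0.917) and Usp32 (0.912), with Sat1 at 0.511.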

How the data were processed

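The authors deposited raw counts per gene, 1 column per library, with no normalisation. Per the file headers, featureCounts 1.6.0 counted reads on the Ensembl release 106 annotation of GRCm39, with no option for strand, read pairs or multiple positions. The submitters' processing notes name Trimmomatic and DESeq2, with the aligner not given in the sources used here. Of counts from 2 to 20, 73.0% to 86.0% were even per library; whether both reads of a pair were counted is not stated, and if so, fewer fragments stand behind a count and the floor of 3 counts. Per the submitters' titles, libraries were grouped by day, and letters were treated as names only. The letters of the alignments in the counting command partly differ from the column names, by which columns were matched.

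Genes were filtered with filterByExpr (minimum count 10) and tested with edgeR 4.0.16 (quasi-likelihood F test, TMM, two-sided, Benjamini-Hochberg over all genes), on R 4.3.3. CPM are scaled by TMM. Alternatives were DESeq2 1.42.0, limma voom 3.58.1, RLE scaling, library totals, other filters and left-out libraries; marker sums had an exact permutation test (scipy 1.17.1). The tests were tried on simulated data first. The members and the lists were chosen with earlier results of these data known. Unless stated, genes named are the members, the 2 most abundant and every called gene of each role, 5 regulators, and the 5 genes most like Arg1, Nos2 and Odc1. Some genes that this rule names are not reported here. Of 75 listed pathway genes, 1 had no match. Promoters of 5 of 10 members were in the reference table.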

Additional observations from a re-analysis of the deposited data

Results flagged for a closer look

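Of 54 groups of values from the 5 day 3 libraries, 4 had a library far from the rest (a gap above 0.71 of the group's whole range), and chance flags about 1 in 20 groups. All 4 were in day 3 b. Arg2 had 370.0 CPM there, against 96.8 to 136 CPM in the other day 3 libraries. The neutrophil markers summed to 3773 CPM, against 451 to 681 CPM, the dendritic cell markers to 156 CPM, against 54.8 to 70.5 CPM, and the keratinocyte markers to 40.9 CPM, against 0.747 to 7.19 CPM. Whether the marker levels bear on Arg2 was not tested.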

How the results depend on the processing

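The count of all genes called moved from 2 to 1041 with DESeq2, 825 with limma voom, 1347 with no filter, 146 with the stricter filter and 25 without day 1 a and day 3 b together, ran from 0 to 59 with 1 library left out, and stayed at 2 with RLE scaling or library totals. With the letters a to c alone, 0 genes were called with the replicate block and 0 without it, so that no call of a member or pathway gene was made either way. The deviations of same-letter libraries had r = 0.063, -0.007 and -0.025, and those of other-letter pairs ran from -0.080 to 0.092. These values cannot show whether libraries of a letter shared mice. Members called numbered 1 with DESeq2, 2 with no filter and 0 in every other setting with the main filter (0 to 0 with 1 library left out); under the stricter filter they ran from 0 to 1. Pathway genes called were 10, 8, 14 and 4 with DESeq2, limma voom, no filter and the stricter filter, 1 without day 1 a and day 3 b together, 0 to 1 with 1 library left out, and 0 to 8 so under the stricter filter. Signs turned, with no value past the threshold, in these genes. Arg2 was -0.18 with limma voom and -0.73 without day 1 a and day 3 b together, and ran from -0.53 to 0.21 with 1 library left out (-0.49 to 0.25 under the stricter filter). Oaz1 was -0.091 without both and ran from -0.055 to 0.13 (-0.0031 to 0.17 under the stricter filter). Amd1 was 0.047 with the replicate block and 0.060 without it. Prmt1 was 0.032 without both libraries. Mat2a was 0.0031 with library totals, 0.012 with no filter, 0.023 with the stricter filter, 0.056 without both, and 0.087 with and 0.089 without the replicate block, and ran from -0.10 to 0.043. Atp13a3 ran from -0.12 to 1.14, Enoph1 from -0.88 to 0.095, Eif5a from -0.15 to 0.0079, and Myc from -0.52 to 0.99, with -0.31 without both and -0.47 for the letters without a block. Of 698 values of single genes, 613 kept their sign and side of the threshold. The causes were not tested.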

Other observations

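The salvage of methylthioadenosine, the by-product of spermidine and spermine synthesis, and hypusination, the use of spermidine to modify the translation factor eIF5A, were not called in any gene under either filter by edgeR. In the salvage path, Apip had 33.1, 50.8, 41.5, 53.2 and 47.5 CPM in the day 3 libraries a to e, against 42.2, 37.7 and 18.2 CPM in the day 1 libraries a to c (edgeR, adjusted p = 0.531). Enoph1 had 8.77 to 25.1 CPM at day 3 and 13.3 to 43.1 CPM at day 1 (adjusted p = 0.616). The median log2 fold change of the 5 salvage genes was 0.30, against -0.17 over all genes tested. Eif5a, which encodes the factor itself, had 672, 767, 657, 706 and 774 CPM at day 3 and 732, 685 and 857 CPM at day 1 (adjusted p = 0.839). Dhps, which starts the modification, had 15.1 to 27.1 CPM at day 3 and 18.9 to 25 CPM at day 1 (adjusted p = 0.829). Eif5a2, named after its values were seen, had 3.74 to 9.56 CPM at day 3 and 0.0501, 0.0333 and 3.67 CPM at day 1, which did not overlap (adjusted p = 0.518). The day 1 a and day 1 b values of Eif5a2 are at or under the floor of 3 counts.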
